A study of Homo sapiens with 4 samples.

Results

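A set of 10 focal adhesion genes, the adaptors and kinases LIMS1, ILK, PARVA, ZYX, TLN1, VCL, PXN, FERMT1, FERMT2 and PTK2, were followed across 4 RNA sequencing libraries of 2 human lung cancer cell lines. They are the 10 rows of the deposited expression table that carry these gene names, out of 58174 gene rows. HCC827, an adenocarcinoma line whose EGFR carries an activating deletion, and H1299, a non-small cell carcinoma line established from a lymph node metastasis, were transfected with siCDH3, which targets CDH3, or with the control siCTR. CDH3 is the gene of P-cadherin, which joins epithelial cells to each other. The groups were therefore HCC827 siCDH3, HCC827 siCTR, H1299 siCDH3 and H1299 siCTR, each collected 48 h after transfection and each represented by 1 library. The siRNA sequences, and whether siCDH3 was a pool, were not found in the labels, so an effect of the siRNA on other transcripts and the loss of CDH3 cannot be told apart.

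Focal adhesions are the sites at which integrin receptors couple the extracellular matrix to the actin cytoskeleton. Talin and the kindlins bind integrin tails and switch the receptors on, the complex of ILK, PINCH and parvin anchors them to actin, vinculin and zyxin strengthen the link under tension, and paxillin with focal adhesion kinase forms the signalling platform. Tumour cells differ widely in these proteins, and epithelial cells also use vinculin and zyxin at cadherin junctions, where the adhesion receptors are proteins of the P-cadherin kind.

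Values are TPM, a measure of transcript abundance that is scaled by transcript length and is relative within a library. Ratios were taken as log2 of TPM + 1, for genes with at least 5 TPM in at least 1 of the libraries compared, and understate the change of low genes. CDH3 was at 78.8 TPM in HCC827 siCDH3 against 173 TPM in HCC827 siCTR, so 45.6% of its level was left. In H1299 it was at 0.169 TPM under siCDH3 and 1.21 TPM under siCTR, both below the filter of 5 TPM, so the targeted gene was already near 0 in the H1299 control library. Markers of cell state separated the lines: 12 of 12 epithelial markers were at 5 TPM or more in both HCC827 libraries and 4 of 12 in both H1299 libraries, while 2 of 8 mesenchymal markers passed in each HCC827 library and 7 of 8 in each H1299 library. Of the lung lineage markers, 3 of 9 passed in each HCC827 library and 0 of 9 in each H1299 library, although the labels give lung as the tissue of both. No more than 1 of 8 hematopoietic, 1 of 8 fibroblast and 0 of 6 endothelial markers passed in any library. Between 10713 and 11329 genes reached 5 TPM, and mitochondrially encoded genes held 34.4% and 36.2% of the TPM in HCC827 siCDH3 and siCTR, against 16.4% and 13.5% in H1299 siCDH3 and siCTR. The depth of the libraries is unknown, since TPM keeps no read numbers.

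The promoter windows of the members with the largest siCDH3 to siCTR ratio in HCC827 are shown first, since these genes carry the response described below. RefSeq start sites on GRCh38.p14 gave 11 windows for 7 of the 10 genes, each running 250 bases before to 50 bases after a start, FERMT1 and PARVA had no entry, and PTK2 windows were not used here. For VCL, LIMS1 and FERMT2 the stretch outside annotated exons is printed, for LIMS1 from the first of its 4 windows. Capitals mark every match in the printed stretch, on either strand, to the GC box GGGCGG, the TEAD element GGAATG, the AP-1 site TGANTCA, the CArG box (also with 1 letter changed) or the NF-kB site. The VCL stretch (chr10:73997866-73998113, plus strand) holds GC boxes, 1 TEAD element and 1 NF-kB match. The LIMS1 stretch (chr2:108534220-108534354, plus strand) and the FERMT2 stretch (chr14:52951098-52951300, minus strand) hold GC boxes. The ZYX window had 0 bases before the start that lay outside annotated exons. For ZYX 30 bases around a CArG box with 1 letter changed are therefore shown from within annotated exons (chr7:143381229-143381258, plus strand). The ZYX window also held 5 GC boxes and 1 NF-kB match, which are not shown.
VCL: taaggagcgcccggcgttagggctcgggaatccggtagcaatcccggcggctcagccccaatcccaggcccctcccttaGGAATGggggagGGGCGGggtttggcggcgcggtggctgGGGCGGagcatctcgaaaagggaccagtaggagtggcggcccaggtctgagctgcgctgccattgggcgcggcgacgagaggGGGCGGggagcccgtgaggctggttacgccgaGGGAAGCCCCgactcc
LIMS1: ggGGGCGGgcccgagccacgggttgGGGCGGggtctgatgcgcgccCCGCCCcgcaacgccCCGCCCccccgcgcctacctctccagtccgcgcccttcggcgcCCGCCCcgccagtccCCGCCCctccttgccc
FERMT2: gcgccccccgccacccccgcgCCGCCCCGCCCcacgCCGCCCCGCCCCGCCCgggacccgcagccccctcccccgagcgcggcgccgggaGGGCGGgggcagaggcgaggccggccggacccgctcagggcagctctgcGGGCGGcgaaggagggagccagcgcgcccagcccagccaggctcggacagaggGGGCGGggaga
ZYX: ccgggccgctCCTTGTATGGtctgggcgcc

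These letters are common in promoters. Of 35116 windows of 300 bases across all genes, 45% held a GC box, 14% a TEAD element, 7.71% an AP-1 site, 17.9% a CArG box with 1 letter changed and 5.91% an NF-kB match. The unchanged CArG box was in 1.29% of all windows and in 0 of the 11 member windows. A match is a description of the letters and was not tested as a binding site.

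The members differed in level before any comparison of treatments. In both HCC827 libraries PXN, ZYX and PTK2 led, whereas in both H1299 libraries ZYX and PTK2 came before PXN, and FERMT1 was last. The summed TPM of the 10 genes was 540 in HCC827 siCDH3 and 438 in HCC827 siCTR, against 1113 in H1299 siCDH3 and 1170 in H1299 siCTR. The highest member exceeded the lowest 13.4-fold and 17.5-fold in the HCC827 libraries and 107-fold and 75.8-fold in the H1299 libraries.

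**Figure D1:**
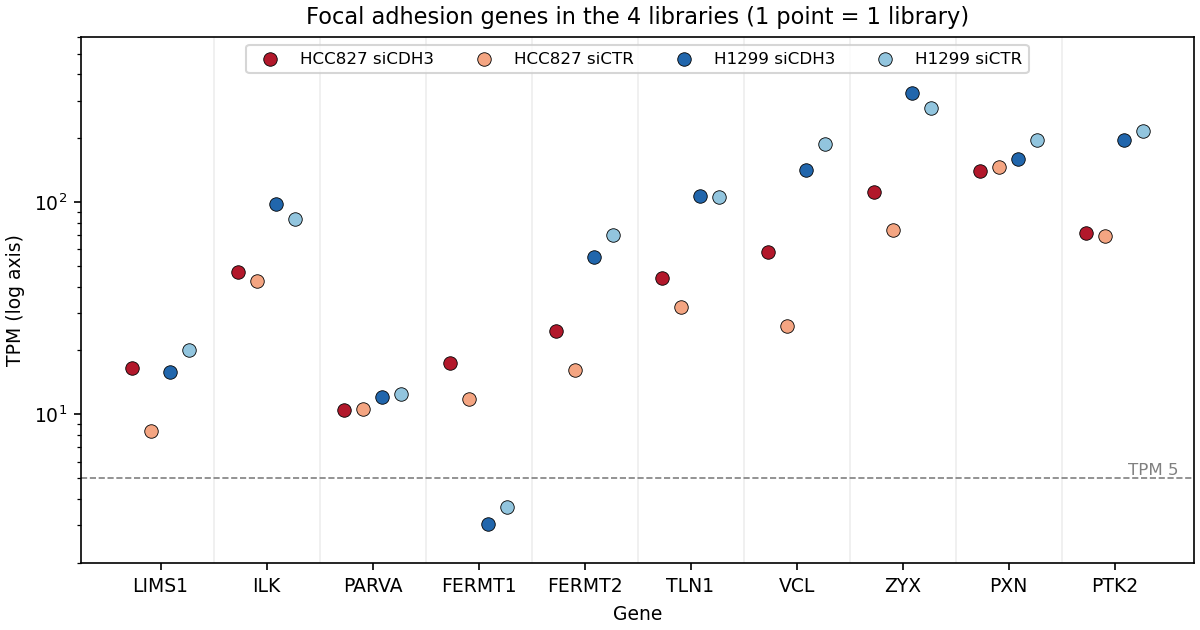
TPM of the 10 genes (log axis) in each of the 4 libraries, with 1 point per library and no error bar because each group has 1 library. VCL is at 58.1 and 26.2 TPM in the HCC827 siCDH3 and siCTR libraries and at 142 and 187 TPM in those of H1299, while PXN lies between 140 and 195 TPM in all 4.

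Among the integrin activators, TLN1, talin 1, which binds integrin beta tails and pulls on actin, was at 44 TPM in HCC827 siCDH3 against 31.9 TPM in HCC827 siCTR. In H1299 it was at 107 TPM under siCDH3 and 106 TPM under siCTR, more than in either HCC827 library. FERMT2, kindlin-2, was at 24.6 TPM in HCC827 siCDH3, 16.2 TPM in HCC827 siCTR, 54.8 TPM in H1299 siCDH3 and 69.6 TPM in H1299 siCTR. It was therefore higher in the siCDH3 library in HCC827 and lower in it in H1299. FERMT1, kindlin-1, the kindlin of epithelial cells, ran the other way between lines, at 17.5 and 11.8 TPM in HCC827 siCDH3 and siCTR and at 3.04 and 3.65 TPM in H1299 siCDH3 and siCTR. FERMT1 took 40% and 40.3% of the summed TPM of the 3 kindlin genes in HCC827 siCDH3 and siCTR, against 5.21% and 4.96% in H1299 siCDH3 and siCTR. The share thus differed little between siRNAs in either line, while the kindlin sum was 43.8 TPM in HCC827 siCDH3 and 29.3 TPM in HCC827 siCTR.

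The ILK, PINCH and parvin complex is built from LIMS1 (PINCH-1), ILK and PARVA (alpha-parvin), a scaffold that needs all its partners to be stable. LIMS1 was at 16.6 TPM in HCC827 siCDH3 against 8.38 TPM in HCC827 siCTR, and at 15.8 TPM in H1299 siCDH3 against 20.1 TPM in H1299 siCTR. The HCC827 siCTR library was the low one, and the other 3 lay between 15.8 and 20.1 TPM. ILK, the pseudokinase that holds the complex together, was at 46.6 and 42.6 TPM in HCC827 siCDH3 and siCTR and at 97.5 and 83.1 TPM in H1299 siCDH3 and siCTR. PARVA varied little, at 10.5 and 10.6 TPM in HCC827 siCDH3 and siCTR and at 12.1 and 12.5 TPM in H1299 siCDH3 and siCTR. LIMS1 was the sole member of the complex far apart between the HCC827 libraries, and the ratio of ILK to LIMS1 was 2.8 in HCC827 siCDH3 against 5.08 in HCC827 siCTR.

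Some members share sequence with other genes. For LIMS1, of its 7809 distinct 31-base words, 27.8% occur in other genes, mainly the near-identical LIMS3 and LIMS4, against at most 2.97% for any other member. Summed over LIMS1, LIMS3 and LIMS4, the level was 19.7 TPM in HCC827 siCDH3 against 8.4 TPM in HCC827 siCTR, a log2 ratio of 1.14, and 21.1 TPM in H1299 siCDH3 against 27.6 TPM in H1299 siCTR, a log2 ratio of -0.37. The sums had the same sign as LIMS1 alone in both lines. For ILK, 68.1% of its exonic bases lie opposite exons of TAF10 and the strandedness of the libraries is not given. TAF10 was at 77.1 and 69 TPM in HCC827 siCDH3 and siCTR and at 117 and 120 TPM in H1299 siCDH3 and siCTR, so ILK and TAF10 reads may not be separable. For VCL this share was 11.1% (AP3M1), and AP3M1 was nearly equal in HCC827 siCDH3 and siCTR, at 23.1 and 23 TPM. For PXN it was 12.3% (PXN-AS1, under 10 TPM in every library).

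The actin linkers were VCL and ZYX. VCL, vinculin, which binds talin and cadherin-bound alpha-catenin under tension, was at 58.1 TPM in HCC827 siCDH3 against 26.2 TPM in HCC827 siCTR, 2.22-fold higher in TPM. In H1299 it was at 142 TPM under siCDH3 and 187 TPM under siCTR. Vinculin transcripts thus passed those of ILK and TLN1 in HCC827 siCDH3 and lay below both in HCC827 siCTR, the library in which LIMS1 was also at its lowest. ZYX, zyxin, a LIM protein that recruits actin regulators to strained filaments, was at 111 TPM in HCC827 siCDH3 against 74.1 TPM in HCC827 siCTR, and at 325 TPM in H1299 siCDH3 against 277 TPM in H1299 siCTR. ZYX was higher in the siCDH3 library in both lines, with log2 ratios of 0.58 in HCC827 and 0.23 in H1299, where removing a length and GC trend left 0.07.

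The signalling pair varied less. PXN, paxillin, the adaptor that gathers kinases at the adhesion, was at 140 and 146 TPM in HCC827 siCDH3 and siCTR and at 160 and 195 TPM in H1299 siCDH3 and siCTR. PTK2, focal adhesion kinase, was at 71.5 and 69.2 TPM in HCC827 siCDH3 and siCTR and at 196 and 217 TPM in H1299 siCDH3 and siCTR. PTK2 differed between lines and little between siRNAs.

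In HCC827, 6 of the 10 members stood well above the middle of all genes in the siCDH3 library, and they were the integrin activators, LIMS1 and the actin linkers. In bulk RNA, a change in the number of cells of a kind and in the RNA of each cell cannot be told apart. The log2 ratio of siCDH3 over siCTR was 1.12 for VCL, 0.91 for LIMS1, 0.58 for FERMT2, 0.58 for ZYX, 0.53 for FERMT1 and 0.45 for TLN1. ILK, PTK2, PXN and PARVA lay between -0.07 and 0.13. VCL stood at percentile 99.3 and LIMS1 at 98.7 of the 11043 genes, with 79 and 138 genes above them. FERMT2 (96.5), ZYX (96.5), FERMT1 (95.9) and TLN1 (94.4) followed, while PARVA (38.8) and PXN (30.1) were below the middle.

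In HCC827, 2 of 10 members were at least 1.5-fold higher, VCL and LIMS1, against 3.35% of all genes. ZYX and FERMT2 were just under that size on the TPM + 1 scale, and 0 of 10 were at least 1.5-fold lower, against 2.54% of all genes. At a 2-fold size VCL remained, against 1.01% of all genes. The members' median log2 ratio was 0.49 and the median of all genes was 0.03, and 8 of 10 members lay above it. Since the members were chosen with earlier results of these data known, these counts and medians are a description and not a test. Of the cell type markers past the filter in HCC827, 1 of 19 was at least 1.5-fold higher and 1 lower, both named after their values were seen. NKX2-1, a lung lineage transcription factor, was at 39 TPM in HCC827 siCDH3 against 19.7 TPM in HCC827 siCTR, and CLDN4, a tight junction claudin, at 14.4 TPM in HCC827 siCDH3 against 164 TPM in HCC827 siCTR. Their part in the members' values was not tested. With 1 library per group, no test was made within a line. The cultures of a line were not replicated, so the spread of each gene between cultures is unknown.

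In H1299, 9 members passed the filter and their median log2 ratio was -0.15, beside -0.11 over all 11622 genes. Reported relative to that shift of the whole library, 4 members lay above and 5 below the median. As deposited, VCL was at -0.39, FERMT2 at -0.34, LIMS1 at -0.33 and PXN at -0.28, and ZYX and ILK were at 0.23 each. Relative to the median of all genes, ZYX and ILK were at 0.34 each, VCL at -0.28, FERMT2 at -0.23, LIMS1 at -0.22 and PXN at -0.18. PARVA, at -0.04, changed sign with the scaling (0.06 with the median of all genes set to 0), and TLN1 was at 0.02. FERMT1 stayed under 5 TPM. None of the 9 was at least 1.5-fold higher, against 3.21% of all genes, and none at least 1.5-fold lower, against 7.11% of all genes. In H1299 a fitted dependence on length and base composition accounted for 11.6% of the spread of the ratios, against 0.306% in HCC827. Without it VCL was at -0.32, FERMT2 at -0.21, LIMS1 at -0.17, ILK at 0.13, ZYX at 0.07 and TLN1 at -0.01 in H1299. The part of this dependence in the H1299 values was otherwise not tested. Of 12 cell type markers past the filter in H1299, 1 was at least 1.5-fold higher (KRT7) and 3 lower (CDH2, ZEB1 and SPARC). These were named after their values were seen, and their part in the members' values was not tested.

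**Figure D2:**
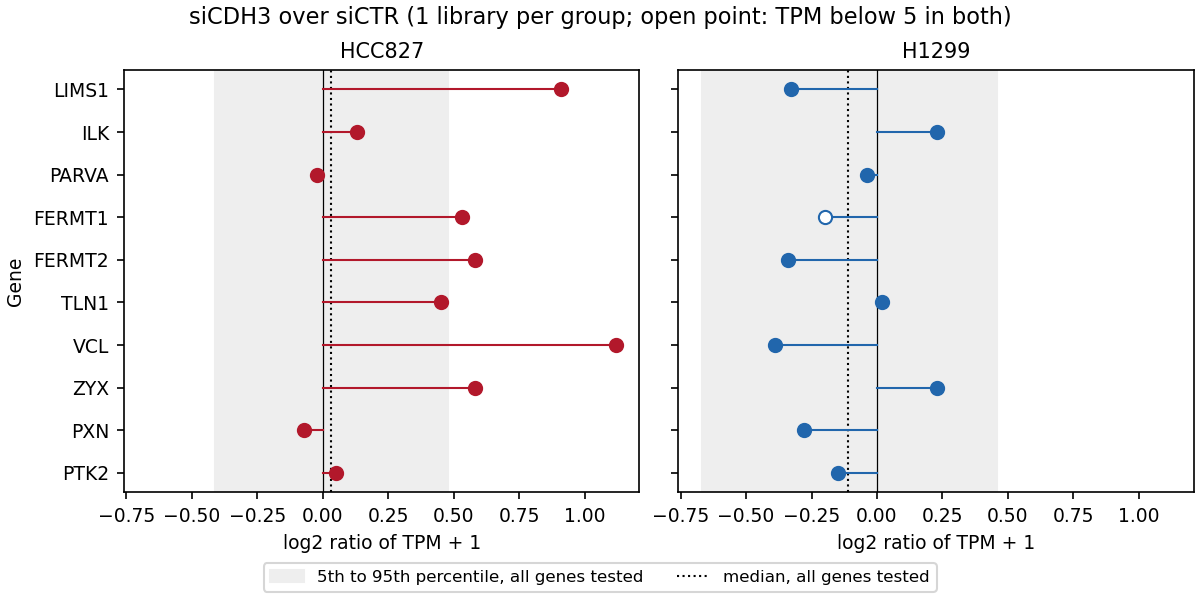
Log2 ratio of TPM + 1, siCDH3 over siCTR, of each gene in HCC827 and in H1299, with the median of all genes in each line. VCL is at 1.12 in HCC827 and -0.39 in H1299, and LIMS1 at 0.91 and -0.33.

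Tested over both lines, with the line as a block, 0 of 10 members were called for siCDH3. limma on log2(TPM + 1) called 1 of 12941 genes, 0.00773%, at a Benjamini-Hochberg adjusted p under 0.05, and 0 of 10 members reached an unadjusted p under 0.05, against 4.49% of all genes (581). The lowest adjusted p among the members was 0.95. The fit has 1 residual degree of freedom, and its spread is how far the responses of the lines differ. ZYX had the smallest unadjusted p of the members, 0.0666, with a limma log2 difference of 0.40. Under 4 of the alternatives that unadjusted p of ZYX was between 0.0283 and 0.0496, with adjusted p of at least 0.881. VCL and LIMS1, whose ratios had opposite signs in the lines, had limma log2 differences of 0.36 and 0.29. CDH3 itself, the targeted gene, was not called either, with a limma log2 difference of -1.02 (unadjusted p 0.00163, adjusted p 0.682). A p above the threshold therefore does not show that a gene was equal.

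Between the lines, 7 of 10 members differed by the limma test across both siRNAs. The SEs given here are moderated towards the spread of all genes tested, with 3.705 prior degrees of freedom beside 1 residual. They are therefore not each gene's own spread. FERMT1 was higher in HCC827 by 1.83 ± 0.23 (log2, SE, adjusted p 0.00234). VCL was lower in HCC827 by a log2 difference of -2.03 ± 0.38 (adjusted p 0.00866), ZYX by -1.71 ± 0.17 (0.00112), FERMT2 by -1.58 ± 0.26 (0.00578), PTK2 by -1.54 ± 0.16 (0.00123), TLN1 by -1.48 ± 0.18 (0.00218) and ILK by -0.998 ± 0.15 (0.00452). LIMS1 (adjusted p 0.197), PARVA (0.295) and PXN (0.158) did not pass. For comparison 41.3% of the genes tested were called lower in HCC827 and 21.5% higher, so a call is common among all genes. With siRNA as a covariate, the spread in this test is how far the 2 lines differ in siRNA response, as in the siRNA test. The spread between cultures of a line was not measured. Cell state markers differed with the line as well: the 12 epithelial markers summed to 5092 and 5470 TPM in HCC827 siCDH3 and siCTR and to 714 and 678 TPM in H1299 siCDH3 and siCTR, and the 8 mesenchymal markers to 131 and 111 TPM in HCC827 siCDH3 and siCTR and to 5253 and 5408 TPM in H1299 siCDH3 and siCTR. Their part in the member differences was not tested.

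That all-gene split depends on scaling. It was 2787 higher and 5351 lower genes, of which 34.2% were higher, and 3658 higher against 4449 lower (45.1%) with library medians made equal, or 4181 against 3744 (52.8%) after rescaling without mitochondrial and ribosomal protein genes. All 7 member calls passed under both scalings, with FERMT1 higher and the other 6 lower. The directions of PARVA and PXN between lines did not hold under all scalings. Fits leaving out 1 library had no siRNA covariate and left 1 library in a line, so they cannot show whether the member calls hold. Over the 4 omissions the log2 difference of ILK lay between -1.11 and -0.88, VCL between -2.59 and -1.47 and FERMT2 between -1.87 and -1.29.

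As deposited, the distance between the lines was smaller under siCDH3 than under siCTR for VCL, LIMS1, FERMT2, TLN1, ZYX, PTK2 and PXN. For ILK and FERMT1 the distance was larger, and for PARVA nearly equal. Relative to the median of all genes, PTK2 was nearly equal, at -1.21 under siCDH3 and -1.24 under siCTR, and PXN was at 0.04 and -0.01. With the length and GC trend removed, ILK was nearly equal, at -0.98 under siCDH3 and -0.99 under siCTR. VCL was 2.45-fold lower in HCC827 than in H1299 under siCDH3, and 7.12-fold lower under siCTR. In log2 terms its ratio of HCC827 over H1299 was -1.28 under siCDH3 and -2.79 under siCTR. LIMS1 was at 0.07 under siCDH3, where its sign changed with the processing (-0.07 to 0.39), and at -1.17 under siCTR, and FERMT2 at -1.12 under siCDH3 and -2.04 under siCTR. FERMT1 was farther apart, at 2.20 under siCDH3 and 1.46 under siCTR. The median over the members was -1.09 under siCDH3, beside -0.23 over all 12542 genes, and -1.40 under siCTR, beside -0.39 over all 12601 genes. The difference between siRNAs in this distance is the same as the difference between lines in response, and was not tested.

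Under siCDH3, 1 of 10 members was at least 1.5-fold higher in HCC827, against 22.8% of all genes, and 6 of 10 were at least 1.5-fold lower, against 37.2%. Under siCTR the counts were 1 of 10 against 19.4% of all genes and 7 of 10 against 42.4%. The added member under siCTR was LIMS1. With the median of all genes set to 0 or after rescaling, 6 members were lower under siCTR, since ILK was then at -0.55 or -0.53, and the counts under both siRNAs were equal.

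**Figure D3:**
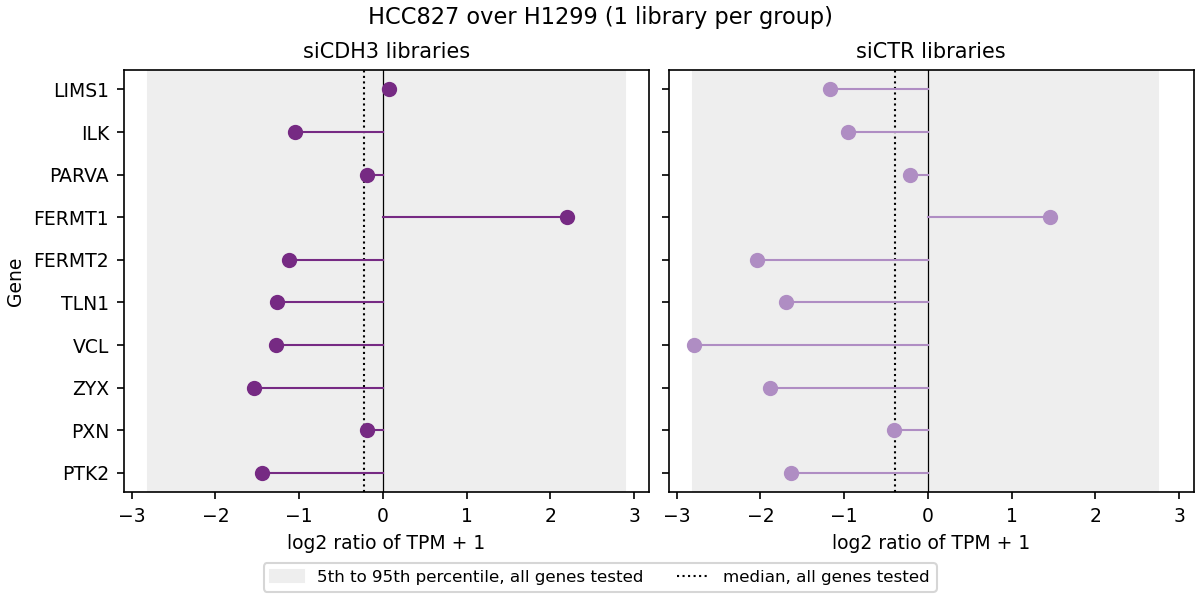
Log2 difference of HCC827 over H1299 for each gene under siCDH3 and under siCTR. FERMT1 lies above 0 and VCL, ZYX, FERMT2, PTK2, TLN1 and ILK lie below it under both siRNAs.

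Paralogs of the members were measured in the same libraries. PTK2B, the PYK2 kinase related to focal adhesion kinase, was at 52.3 and 37.8 TPM in HCC827 siCDH3 and siCTR and at 1.93 and 1.17 TPM in H1299 siCDH3 and siCTR, and was higher in HCC827 by 4.17 ± 0.15 (limma log2, adjusted p 8.39e-05). It formed 42.2% and 35.3% of the PTK2 and PTK2B sum in HCC827 siCDH3 and siCTR, against 0.974% and 0.535% in H1299 siCDH3 and siCTR. PYK2 thus made up far more of the pair in HCC827. TGFB1I1, the paxillin relative Hic-5, was at 0.109 and 0.0727 TPM in HCC827 siCDH3 and siCTR, and at 10.8 and 9.52 TPM in H1299 siCDH3 and siCTR. TLN2, talin 2, was at 0.167 and 0.38 TPM in HCC827 siCDH3 and siCTR, and at 4.93 and 6.6 TPM in H1299 siCDH3 and siCTR. Both were lower in HCC827 by the limma test, at -3.35 (adjusted p 0.000123) and -2.40 (adjusted p 0.00028). The zyxin relative TRIP6 was higher in HCC827, at 111 and 107 TPM under siCDH3 and siCTR against 50 and 43.4 TPM in H1299, by 1.21 (adjusted p 0.0025). PARVB, beta-parvin, was higher by 0.51 (adjusted p 0.0417), and the paxillin relative LPXN lay between 5.32 and 6.62 TPM throughout. FERMT3, LIMS2 and PARVG stayed under 5 TPM in all 4 libraries.

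**Figure D4:**
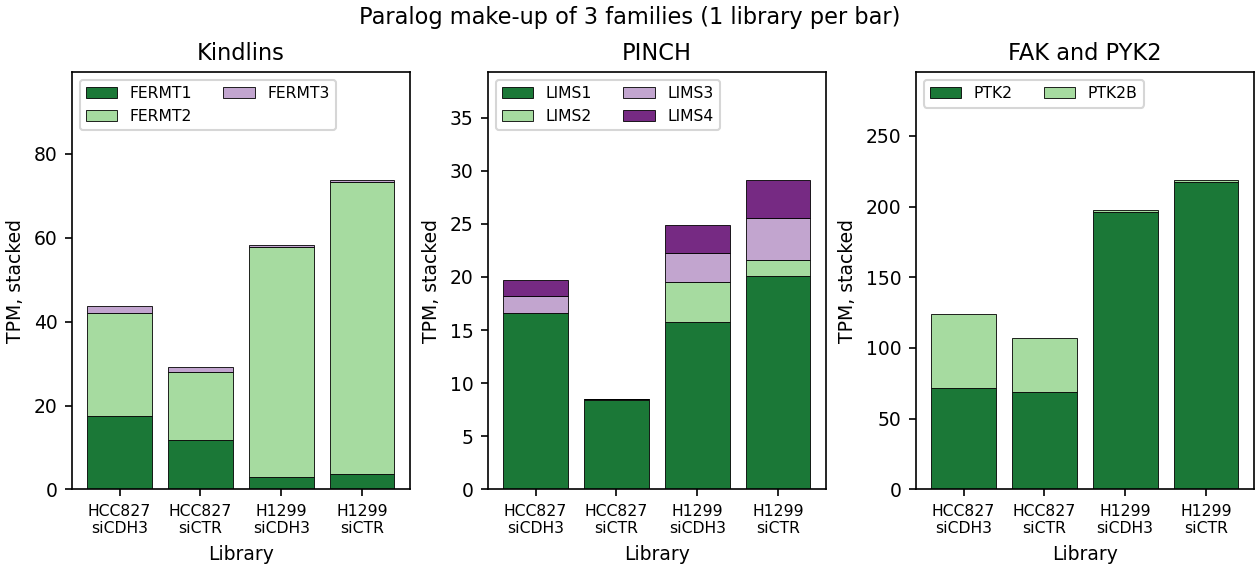
TPM, stacked on a linear axis, of the kindlin genes, the PINCH genes and PTK2 with PTK2B in each library. PTK2B is at 52.3 and 37.8 TPM in the HCC827 siCDH3 and siCTR libraries and under 2 TPM in both H1299 libraries.

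The rest of the adhesion machinery was counted over 6 lists, and in none was a gene called for siCDH3 by limma over all genes. Unadjusted p under 0.05 was reached by 3 of 30 tested genes of the focal adhesion kinase and paxillin list, and by 1 of 23 in the list of SRF and MRTF targets, against 4.49% of all genes. NCK1, an SH2-SH3 adaptor, was lower with siCDH3 in both lines, at 28.6 TPM in HCC827 siCDH3 against 50.5 TPM in HCC827 siCTR and at 22.1 TPM in H1299 siCDH3 against 37.2 TPM in H1299 siCTR (limma log2 -0.76, unadjusted p 0.00464, adjusted p 0.933). In HCC827, the zyxin and alpha-actinin list had 2 of 20 genes at least 1.5-fold higher, LPP and TES, and 0 lower. Of all genes in HCC827, 3.35% were at least 1.5-fold higher and 2.54% lower, the background for the HCC827 list counts. LPP, the lipoma-preferred zyxin relative, was at 12.6 TPM in HCC827 siCDH3 against 7.81 TPM in HCC827 siCTR, and at 8.53 TPM in H1299 siCDH3 against 12.1 TPM in H1299 siCTR. TES, testin, was at 84.8 against 50.4 TPM in HCC827 siCDH3 and siCTR. Of the integrin subunits 0 of 11 passed the 1.5-fold size in HCC827, with a median log2 ratio of 0.17, and of SRF and MRTF targets 0 of 19, with a median of 0.05. The ILK complex list (0 of 5, median -0.02) and the talin and vinculin list (0 of 8, median -0.15) had none either, and the focal adhesion kinase and paxillin list had ARHGAP35, named after its value was seen, higher and NCK1 lower of 27, median 0.03.

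In H1299 other adhesion genes differed between the libraries. GRB2, an adaptor to Ras signalling, was at 78.9 TPM in H1299 siCDH3 against 29.6 TPM in H1299 siCTR, and ARHGAP5, a RhoGAP, at 10.8 TPM in H1299 siCDH3 against 27.5 TPM in H1299 siCTR. In the kinase and paxillin list 1 gene of 28, GRB2, was at least 1.5-fold higher and 3 were lower, NCK1, ARHGAP5 and PEAK1 (median -0.35). As background for the H1299 list counts, 3.21% of all genes passed this size upwards and 7.11% downwards. The all-gene median in this line was -0.11. ITGAV, the integrin alpha-V subunit, was the 1 of 13 integrins at least 1.5-fold lower, at 14.4 TPM in H1299 siCDH3 against 26 TPM in H1299 siCTR (median -0.19). ACTB, beta-actin, was at 1506 TPM in H1299 siCDH3 against 2241 TPM in H1299 siCTR, and at 2349 TPM in HCC827 siCDH3 against 1635 TPM in HCC827 siCTR. TPM3, a tropomyosin, was at 190 against 94.8 TPM in H1299 siCDH3 and siCTR, the 1 of 23 SRF and MRTF targets at least 1.5-fold higher. RAP1A, the small GTPase upstream of talin, was at 36.8 TPM in H1299 siCDH3 against 23.7 TPM in H1299 siCTR, the 1 of 10 talin and vinculin genes past the size (median -0.13). The zyxin list (20 genes, median -0.03) and the ILK list (6, median -0.03) had none past the size.

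**Figure D5:**
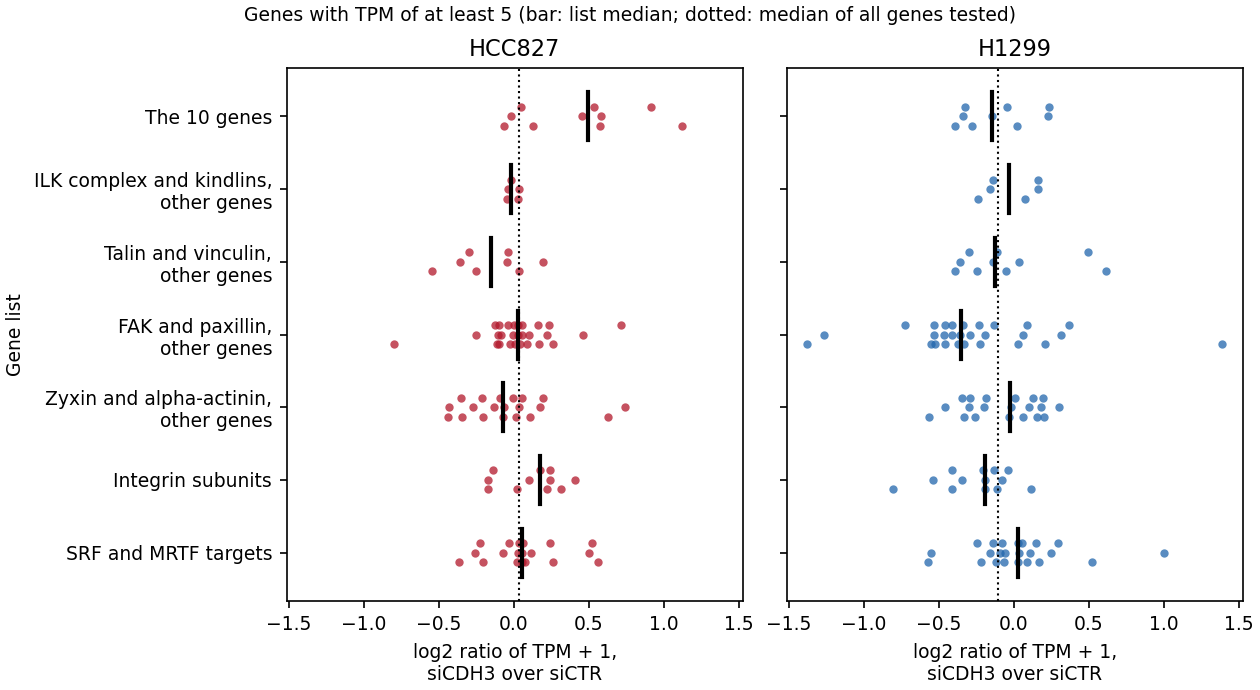
Log2 ratios of siCDH3 over siCTR for the 10 members and the genes of 6 adhesion lists in each line, with list medians and the median of all genes. In HCC827 the members' median of 0.49 lies above the medians of all 6 lists, which run between -0.15 and 0.17. Members and lists were chosen with earlier results of these data known, so this is a description.

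Between the lines, genes called lower in HCC827 outnumbered those called higher in all 6 lists. By the limma test across both siRNAs 1 of 23 SRF and MRTF targets was higher in HCC827 and 15 lower, 1 of 11 talin and vinculin genes was higher and 8 lower, and 5 of 30 kinase and paxillin genes were higher and 13 lower. The zyxin list had 5 higher and 6 lower of 20, the integrins 5 higher and 8 lower of 16, and the ILK list 2 higher and 4 lower of 6. Of all genes tested 21.5% were higher and 41.3% lower, the background for these counts, which were not recomputed under other scalings.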

How the data were processed

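Total RNA of 4 cultures, HCC827 and H1299 under siCDH3 or siCTR, was sequenced with a standard Illumina library protocol, per the labels' protocols. The authors deposited TPM values for 58174 genes, 1 column per library and 0 other value columns. The build is hg19, per the submitters' processing notes. The aligner, quantifier, strandedness and depth: not given in the sources used here. TPM keeps no depth, so no interval or floor can be given.

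Members and lists were chosen with earlier results of these data known. Each ratio is log2(TPM + 1), first group over second, for genes reaching 5 TPM in 1 or more of the libraries compared. limma (3.58.1, R 4.3.3) was fitted to 12941 genes with 1 residual degree of freedom, with Benjamini-Hochberg adjustment over all of them and a threshold of 0.05. Cell line was the block for siRNA and siRNA a covariate for line. Libraries were paired by their labelled cell line. Nothing says whether cultures were independent. The residual of both fits is how far the lines differ in siRNA response, which includes any technical spread. The genes named are the 10 members, CDH3, the members' paralogs, and up to 4 genes per list with the largest absolute ratio in either line. GENCODE 29 gave lengths, GC content, exon overlaps and shared 31-base words. Promoters are RefSeq GRCh38.p14, and no coordinate comes from the deposited table. The scripts were tested on simulated data. Alternatives were pseudocounts of 0.1 and 5, filters at 1 and 20 TPM or none, medians made equal and a 2-fold size. Others were rescaling without mitochondrial and ribosomal protein genes, and limma with a trend or without the block or covariate. Each library was also left out, in fits without the block or covariate. Removing a length and GC trend was added after seeing the data.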

Additional observations from a re-analysis of the deposited data

Results flagged for a closer look

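For 19 of the genes screened, the log2 ratio of siCDH3 over siCTR had opposite signs in the lines, by at least 0.1 in each. Screened were the members, the genes named by rule, the paralogs, the near-identical or overlapping genes and the cell type markers at least 1.5-fold apart in a line. The genes named by rule were picked for large ratios. The share of all genes with such opposite signs was not computed, so the count of 19 has no background. The difference between the lines was not tested because each group has 1 library. As HCC827 minus H1299, it was 1.51 for VCL, 1.24 for LIMS1, 0.92 for FERMT2 and 0.74 for FERMT1 among the members, where FERMT1 was under 5 TPM in H1299. Among the other adhesion genes it was 1.10 for ACTB, 1.08 for LPP, 1.05 for ITGAV, 0.94 for TES, 0.66 for ITGB1 and 0.59 for FLNA. It was -1.26 for TPM3, -0.76 for KANK3 and -0.54 for CALD1, which were higher with siCDH3 in H1299. Of the paralogs and of the near-identical or overlapping genes, it was 1.75 for LIMS3 and 1.65 for LIMS4, which stayed under 5 TPM, -1.06 for LIMS2, also under 5 TPM, and -0.69 for PXN-AS1. Of the markers it was -3.58 for CLDN4 and -0.99 for KRT7.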

How the results depend on the processing

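No called result reversed. Of 303 alternative values for single members, 228 stayed within 0.1 on the log2 scale and 75 moved by 0.1 or more. In H1299 the members' median of -0.15 was -0.04 with the median of all genes set to 0 and -0.05 with the length and GC trend removed, an alternative chosen after seeing the data. In HCC827 the count of 2 members at least 1.5-fold higher was 1 under a filter at 20 TPM, where fewer members are tested, 1 under the 2-fold size, 3 with a pseudocount of 0.1 (FERMT2 added) and 3 without the length and GC trend (ZYX added). The line median under siCDH3, -1.09, was -1.26 under the 20 TPM filter, -0.85 after centring and -0.77 after rescaling. Under siCTR, -1.40 was -1.24 with a pseudocount of 5, -1.67 under the 20 TPM filter, -1.01 after centring and -1 after rescaling. The count of members higher in HCC827 was 0 rather than 1 under the 20 TPM filter in each, since FERMT1 was not tested. The limma count between lines was 7, and 0 with no filter, where 51 of 58174 genes were called. Without the block or covariate the counts were 7 for line and 0 for siRNA, but the line difference then entered the residual of the siRNA fit. Fits leaving out 1 library also lacked the block or covariate, and left 1 library in a group. Their counts are not given, since they cannot show whether either result holds. Causes were not tested. All-gene splits at 1.5-fold changed with centring: 50.7% higher in H1299 against 31.1%, 50.3% against 38% between lines under siCDH3 and 50.9% against 31.4% under siCTR.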

Other observations

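The ratios between partners of the adhesion are given as values with no test. Those of PXN to PTK2 and of ILK to PARVA differed between lines under both siRNAs. That of VCL to TLN1 differed between lines under siCTR and was nearly equal under siCDH3. The ratio of VCL to TLN1 was 1.32 in HCC827 siCDH3 and 0.822 in HCC827 siCTR, and 1.33 in H1299 siCDH3 and 1.77 in H1299 siCTR. The ratio of PXN to PTK2 was 1.95 and 2.12 in HCC827 siCDH3 and siCTR, against 0.816 and 0.895 in H1299 siCDH3 and siCTR. The ratio of ILK to PARVA was 4.46 and 4.01 in HCC827 siCDH3 and siCTR, against 8.09 and 6.67 in H1299 siCDH3 and siCTR.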
